A study of Mus musculus with 9 samples.

Results

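The comparison described here set AML12 cells given Ang(1-7) before a fatty acid load against AML12 cells given the fatty acids alone. AML12 is a mouse hepatocyte line, established from mice that carried a transgene for human TGF-alpha. The PA/OA group was loaded for 24 h with PA at 0.2 mM and OA at 0.4 mM, taken to be palmitic and oleic acid. The Ang(1-7) group received 100 nM of the peptide Ang(1-7), added 30 min ahead of the same fatty acids. Each group had 3 libraries, taken by their labels as 6 of the 9 libraries of the study, and all 10259 gene symbols listed for both groups were carried into the comparison. The remaining 3 libraries, from untreated cells, enter below as levels side by side. The peptide was given in no group without fatty acids, so its values are differences within fatty acid loaded cells. The labels do not say whether the 3 libraries of a group came from separate cultures, and p-values then measure the spread between these libraries, which may be technical.

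Ang(1-7) is a short peptide of the renin-angiotensin system. Angiotensinogen, made by hepatocytes, is cut by renin, and other peptidases trim the products to shorter peptides, Ang(1-7) among them. The peptide is known as a ligand of the receptor MAS and for actions opposed to those of angiotensin II at its AT1 receptor. Palmitic and oleic acid are the usual pair for loading cultured hepatocytes with triglyceride in lipid droplets. Of the genes of the peptide's own system, Mas1, Agtr1a, Agtr2 and Ace were not analysed here.

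The listed counts came to between 24759184 and 28704499 per library. The hepatocyte markers summed to between 21108 and 23818 CPM (counts scaled to a library's listed total) in each of the 6, mostly from the keratin genes Krt8 and Krt18, which epithelial cells in general express. Alb, the albumin gene, lay between 3.11 and 20.7 CPM. Ang(1-7) 2 stood apart from the other libraries. It lay alone at least 2-fold outside all 5 others in 11.6% of the 6819 genes that averaged 50 counts or more (120 higher, 673 lower), against 0.220% to 1.29% for each of the others, and 28.4% of predicted transcripts had a count of 0 there. Ang(1-7) 2 and 3 also held transcripts of neurons. Of 22 neuron markers chosen, 9 were listed. All 9 were above 0 in both, with sums of 96.1 and 53.8 CPM (exact 95% Poisson intervals 92.6 to 99.8 and 51.1 to 56.7). In each other library 2 of 9 were above 0, with sums of 1.63 to 2.71 CPM. Nefh, Nefl, Nefm, Stmn2, Thy1, Tubb3 and Uchl1 were at 0 there, so only their counts in Ang(1-7) 2 and 3 placed them among the listed genes. The number of members above 0 is therefore partly set by the listing. The summed astrocyte markers (7 of 9 listed), 128 and 149 CPM in Ang(1-7) 2 and 3, overlapped with the 96.7 to 139 CPM of the others. So did oligodendrocyte markers (5 of 10 listed, 120 and 146 against 126 to 137). All 7 and all 5 listed members were above 0 only in those 2 libraries. Red blood cell markers (3 of 7 listed) summed to 4.70 and 3.13 CPM in Ang(1-7) 2 and 3 against 0.364 to 1.29 elsewhere. Stellate cell and fibroblast markers (5 of 11 listed) summed to 20.4 and 15.1 against 5.98 to 9.22. In these lists too, Slc1a3, Cldn11, Mog, Olig1, Hbb-bs, Col1a2 and Col3a1 were at 0 in every other library. The part of these transcripts in the results below was not tested, apart from the values given without a library.

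No gene passed the test for a difference with Ang(1-7). After Benjamini-Hochberg adjustment of edgeR's quasi-likelihood p-values, 0 of 9261 genes lay under 0.05 (0%), and the lowest adjusted p was 0.965. Before adjustment 236 genes had a p under 0.05 (2.55%), 114 with higher values (1.23%) and 122 with lower values (1.32%). All 3 Ang(1-7) libraries lay above all 3 PA/OA libraries in 426 genes (4.6%) and below them in 590 (6.37%), together 1016 (11%). With Ang(1-7) 2 set aside, Ang(1-7) 1 and 3 were above all PA/OA libraries in 861 of the same genes (9.3%) and below in 1013 (10.9%). Without Ang(1-7) 2 the test again called 0 of 9662 genes (0%), with 346 at an unadjusted p under 0.05 (3.58%) and a lowest adjusted p of 0.225. DESeq2 called 3 genes, S100a11, Nsun3 and Gfap, all higher, and limma-voom called 0. Leaving out Ang(1-7) 1, which leaves the 2 libraries with neuron transcripts, gave 18 calls among 9760 genes tested, all higher. Among these were Nefl, Nefm, Nefh, Gfap, S100b, Tubb3 and Uchl1, genes of neurons and glia, and S100a11. Nefl, Nefm, Nefh, Tubb3 and Uchl1 were at 0 in every other library, so their calls were largely set by the listing.

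The absence of calls does not show that the groups were alike. The 95% interval of the log2 change lay within 1 log2 unit of 0, a 2-fold difference, in 4047 of 9261 genes (43.7%). Among the 3381 genes that averaged 500 counts or more it did so in 91.3%. A 2-fold difference of a strongly expressed transcript therefore lay outside most intervals, and for weakly expressed transcripts it mostly did not. The plot of log2 change against level shows the wider spread at low levels.

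**Figure D1:**
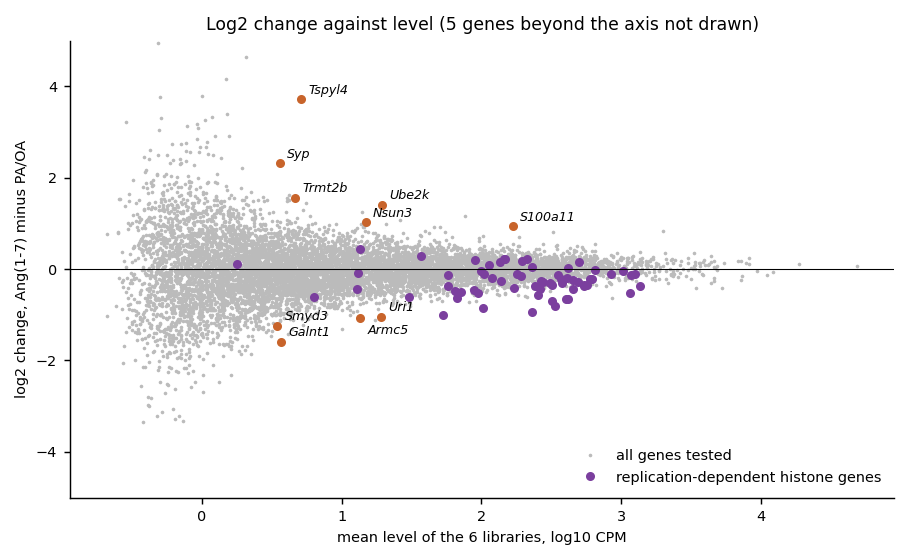
Each point is a gene, with the mean level of the 6 libraries on the x axis (log10 CPM) and the log2 change, Ang(1-7) minus PA/OA, on the y axis. The 64 histone genes are in purple, 51 of them below 0, and 10 of the genes named in the text are in orange.

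S100a11 had the lowest p of all genes. It encodes a calcium-binding protein of the S100 family. Its level was 120, 125 and 99.8 CPM in the PA/OA libraries, against 169, 234 and 262 CPM in the Ang(1-7) libraries, in replicate order. Every Ang(1-7) library lay above every PA/OA library, and the highest were the 2 libraries with neuron transcripts. The part of those transcripts in the S100a11 level was not tested. The log2 change of S100a11 was 0.94 ± 0.18 (SE, 95% interval 0.54 to 1.35, adjusted p = 0.965 in edgeR's test with Benjamini-Hochberg adjustment). DESeq2 called it (adjusted p = 0.0175 with Benjamini-Hochberg adjustment), and without Ang(1-7) 2 the change was 0.92 (adjusted p = 0.225 in edgeR).

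A pair of genes for enzymes that methylate mitochondrial RNA came next among those with higher values, apart from Gfap. Nsun3, a methyltransferase for the mitochondrial methionine tRNA, had 8.74, 10.3 and 10.3 CPM in PA/OA and 19.8, 21.8 and 18.4 CPM in Ang(1-7), with every Ang(1-7) library above every PA/OA library. Its log2 change was 1.03 ± 0.22 (95% interval 0.53 to 1.53), called by DESeq2 (adjusted p = 0.0298) but not by edgeR, and it was listed through 1 predicted transcript. Trmt2b, which encodes a uridine methyltransferase acting on tRNA and mitochondrial ribosomal RNA, had 2.87, 2.51 and 1.63 CPM in PA/OA and 5.24, 7.98 and 7.62 CPM in Ang(1-7). The groups did not overlap, and the log2 change was 1.57 ± 0.38. Of all 49 tested genes of tRNA and rRNA modification, 3 lay above PA/OA in every Ang(1-7) library (6.12%, beside 4.6% of all genes) and 4 below (8.16%, beside 6.37%), shares near those of all genes, with a median log2 change of 0.03 beside -0.01 for all genes.

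Ube2k, a ubiquitin-conjugating enzyme gene, had 9.17, 11.1 and 11.5 CPM in PA/OA and 14.9, 47.6 and 22.0 CPM in Ang(1-7). Its log2 change of 1.41 ± 0.39 was carried most by Ang(1-7) 2 and was 0.82 without that library. Stxbp4, which encodes a syntaxin-binding protein linked to insulin-regulated transport of glucose transporter vesicles, was at 40.7, 42.0 and 40.2 CPM in PA/OA and 51.5, 66.5 and 58.3 CPM in Ang(1-7), a log2 change of 0.52 ± 0.16. Its PA/OA libraries lay close together and all 3 Ang(1-7) libraries were above them. Rbbp9, a serine hydrolase gene, was at 26.6, 28.8 and 26.8 CPM against 35.1, 61.5 and 40.7 CPM (log2 change 0.74 ± 0.23, and 0.48 without Ang(1-7) 2). Srp54c, for a subunit of the signal recognition particle, had a log2 change of 1.29 ± 0.37 and is uncertain because Srp54 genes have near-identical copies.

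The last 3 genes named with higher values were highest in the 2 libraries with neuron transcripts. Gfap, an intermediate filament gene of astrocytes, had 0 counts in each PA/OA library and 12, 888 and 378 counts in Ang(1-7) 1 to 3. Of the 5 astrocyte markers tested, Gfap alone had a positive log2 change and 4 had a negative one. Syp, the synaptic vesicle gene synaptophysin, was at 1.44, 0.812 and 1.36 CPM in PA/OA and 1.69, 10.7 and 5.73 CPM in Ang(1-7). Tspyl4, a gene of the nucleosome assembly protein family, was at 0.0388, 0.890 and 1.24 CPM and at 1.42, 17.6 and 9.71 CPM. In all 3 genes Ang(1-7) 2 was highest and Ang(1-7) 3 next, the order of the neuron marker sums, and Ang(1-7) 1 lay close to the PA/OA libraries. Syp is itself among the neuron markers summed, so its order is not independent of the sums. Gfap, at 0 counts in PA/OA, was listed only through its counts in the Ang(1-7) libraries.

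Among the named genes with lower values, Armc5 had the lowest p. It encodes an armadillo repeat protein that serves as an adaptor of a CUL3 ubiquitin ligase. Its level was 21.4, 17.9 and 16.1 CPM in PA/OA and 10.4, 7.64 and 8.29 CPM in Ang(1-7), with no overlap and similar values in all 3 Ang(1-7) libraries. The log2 change was -1.07 ± 0.25 (95% interval -1.63 to -0.51) and -0.97 without Ang(1-7) 2. Uri1, which encodes a prefoldin-like chaperone protein, was at 29.0, 23.1 and 24.8 CPM in PA/OA and 12.7, 8.39 and 16.3 CPM in Ang(1-7), a log2 change of -1.04 ± 0.27. The lowest PA/OA library was above the highest Ang(1-7) library. Neither gene passed edgeR's test (adjusted p = 0.965 for both with Benjamini-Hochberg adjustment).

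Galnt1, which starts mucin-type O-glycosylation, was at 5.75, 6.81 and 4.12 CPM in PA/OA and 2.09, 0.790 and 2.64 CPM in Ang(1-7), a log2 change of -1.59 ± 0.51. Topbp1, a scaffold of DNA replication and the damage checkpoint, was at 8.85, 11 and 10.8 CPM against 6.74, 3.61 and 5.09 CPM (log2 change -0.99 ± 0.32). It had no value in the fit limited to curated transcripts, which leaves out predicted ones. Smyd3, a lysine methyltransferase gene, was at 4.27, 6.54 and 3.77 CPM against 2.36, 2.26 and 1.56 CPM (log2 change -1.24 ± 0.42). None of the 3 overlapped between groups, and for Topbp1 and Galnt1 the lowest value was that of Ang(1-7) 2. The plot of the named genes by library shows these values together.

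**Figure D2:**
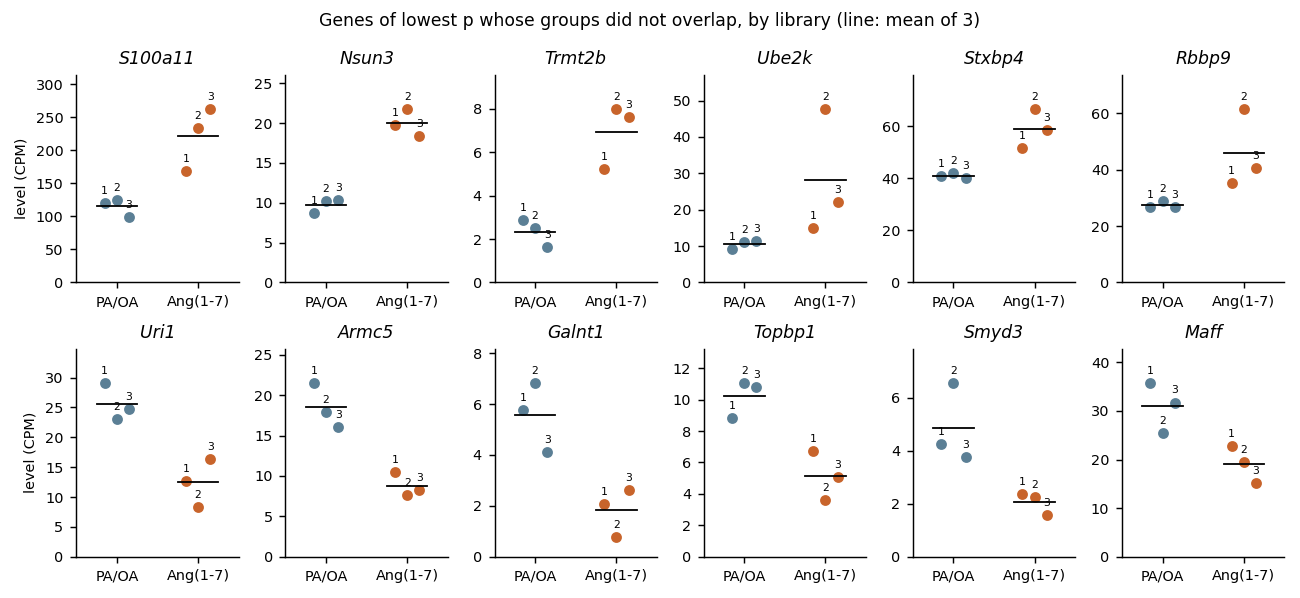
Level in CPM of 12 named genes in the 3 PA/OA and 3 Ang(1-7) libraries, numbered by replicate, with a line at the group mean. The top row holds genes with higher values, from S100a11 at 99.8 to 262 CPM, and the bottom row genes with lower values, and the groups do not overlap in any panel.

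The remaining 4 genes with lower values named by lowest p, other than the transcription factor gene Maff, were replication-dependent histone genes: Hist1h2ao, Hist1h3h, Hist2h2ab and Hist1h2af. These genes encode the core and linker histones that package newly made DNA, and their transcripts are made in S phase. Their messages end in a conserved stem-loop in place of a poly(A) tail, and this stem-loop is bound by the protein SLBP, which governs their processing and decay. A search of the last 120 bases of the matched GENCODE M21 transcripts for a perfect stem of 6 bases around a loop of 4 found one in 25 of the 64 histone genes tested (39.1%) and in 7.57% of 6933 other genes, so the search is not specific to histones. In Hist1h1d and Hist2h2be the stem was made of A and T only. Hairpins of genes whose groups did not overlap are shown because they mark the group of transcripts described next, with the stem in capitals and the loop in lower case.
Hist1h2ao: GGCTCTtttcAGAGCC
Hist1h2bb: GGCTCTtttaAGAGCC
Hist1h4n: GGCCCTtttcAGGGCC
Hist1h4b: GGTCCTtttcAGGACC
Of the hairpins shown, those of H2A and H2B shared their stem, and those of the H4 genes differed from it and from each other within the stem. Hist1h4f, Hist1h4h and Hist1h4m had the same hairpin as Hist1h4n, so Hist1h4b was the exception among the H4 hairpins found.

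Histone promoters are known for a CCAAT box ahead of a TATA box. The RefSeq promoters (GRCm38.p6, 250 bases before to 50 after the start) of Hist1h3h, chr13:21717378-21717677 on the plus strand, and Hist2h2ab, chr3:96219635-96219934 on the plus strand, are shown because both genes were among those with the lowest p and hold both motifs. Capitals mark CCAAT on either strand (ATTGG on the reverse) and TATAAA.
Hist1h3h: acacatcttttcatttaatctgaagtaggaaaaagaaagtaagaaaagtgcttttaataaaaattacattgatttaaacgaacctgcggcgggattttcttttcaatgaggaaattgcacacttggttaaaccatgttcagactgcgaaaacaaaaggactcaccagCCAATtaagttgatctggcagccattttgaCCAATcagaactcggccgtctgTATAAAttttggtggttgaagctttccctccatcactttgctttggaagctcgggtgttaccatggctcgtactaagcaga
Hist2h2ab: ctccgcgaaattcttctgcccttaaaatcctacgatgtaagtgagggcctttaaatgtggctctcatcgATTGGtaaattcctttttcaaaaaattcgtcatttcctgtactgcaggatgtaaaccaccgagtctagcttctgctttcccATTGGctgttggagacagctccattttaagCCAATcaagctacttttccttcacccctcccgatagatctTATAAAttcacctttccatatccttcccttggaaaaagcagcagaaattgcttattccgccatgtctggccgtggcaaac
Searched on both strands, CCAAT was in a promoter of 84.7% of the 59 histone genes that had one listed. The share was 43.8% of 7368 genes tested and 41.1% of all 27024 genes with a promoter. TATAAA, also searched on both strands, was in a promoter of 55.9% of the histone genes and of 8.75% of genes tested (15.7% of all). A gene counted where any of its promoters held the motif. Among the 26 histone genes with every Ang(1-7) library below PA/OA the shares were 76.9% and 50%. These are matches of letters, and the motifs do not overlap each other in sequence.

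Most histone genes had lower values with Ang(1-7). Of 64 tested, 0 were called, 51 had a negative log2 change, 18 had an unadjusted p under 0.05 with lower values, and in 26 (40.6%, beside 6.37% of all genes) every Ang(1-7) library lay below every PA/OA library. Hist2h2be was the 1 gene with the groups apart in the other direction (1.56%, beside 4.6% of all genes). The median log2 change was -0.25, beside -0.01 over all genes, and -0.26 without Ang(1-7) 2. Histone genes are near-identical copies, so the split of reads between single members is uncertain, and the sum over members is given beside them.

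Summed over the 64 genes, the level was 25038, 21731 and 21360 CPM with the fatty acids alone. It was 20132, 19397 and 17547 CPM in the Ang(1-7) libraries. The groups did not overlap, PA/OA 1 was the highest, and the mean differed by -16.2% (-17.0% without Ang(1-7) 2). By class, the linker histone H1 had 6267, 5208 and 5114 CPM in PA/OA and 4791, 4601 and 4322 CPM in Ang(1-7). H4 had 6589, 6073 and 5998 CPM against 5588, 4596 and 4775 CPM. H1, H2A, H2B and H4 were lower in every Ang(1-7) library, by -17.3%, -20.9%, -10.8% and -19.8% in the mean, while H3 overlapped, with 3685, 3138 and 2884 CPM against 2937, 3402 and 2425 CPM.

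Hist1h3h, an H3 gene, had 431, 380 and 379 CPM in PA/OA and 320, 163 and 252 CPM in Ang(1-7), a log2 change of -0.69 ± 0.21 and -0.46 without Ang(1-7) 2. The H2A gene Hist1h2ao had 99.1, 55.0 and 60.3 CPM against 43.7, 37.6 and 25.7 CPM (log2 change -1.003 ± 0.27), and Hist2h2ab, another H2A gene, had 98.0, 69.0 and 76.3 CPM against 62.5, 38.4 and 55.3 CPM (-0.64 ± 0.21). In all 3 genes PA/OA 1 was the highest library. Hist1h2af was at 293, 245 and 276 CPM and at 228, 189 and 211 CPM (-0.37 ± 0.13). Genes of the cell cycle and DNA replication, which are also active in S phase, had a median log2 change of -0.04 over 32 tested. Of these 1 lay apart higher and 1 apart lower (3.125% each, beside 4.6% and 6.37% of all genes). Without Ang(1-7) 2 the median was -0.06. Then 1 lay apart higher and 6 of 32 apart lower, beside 9.3% and 10.9% of all genes. Their medians by library were -0.08, 0.04 and -0.05 in Ang(1-7) 1 to 3.

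**Figure D3:**
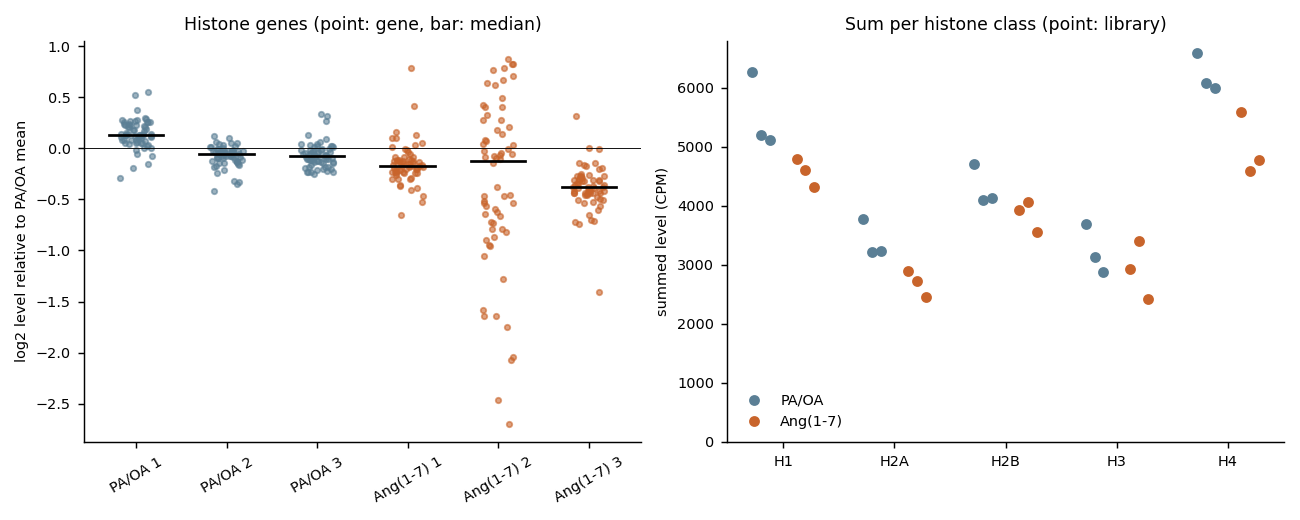
Left, the log2 level of each of the 64 histone genes relative to its PA/OA mean (pseudocount 0.5 CPM) in each library, with a bar at the median, which lies below 0 in all 3 Ang(1-7) libraries. Right, the summed CPM of each histone class by library, where H3 alone overlaps between groups.

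Transcripts of high GC content also had lower values in the Ang(1-7) libraries. Histone transcripts had a median GC content of 58.9%, beside 50.2% for genes tested. In the quintile of genes with the highest GC content, the median log2 level relative to the PA/OA mean was 0.08, -0.03 and -0.04 in the PA/OA libraries. The Ang(1-7) libraries were at -0.07, -0.33 and -0.09. In that quintile 14.4% of genes lay apart lower and 2.01% apart higher, and in the lowest quintile 2.90% and 7.43%. PA/OA 1 and all 3 Ang(1-7) libraries thus differed in opposite directions along GC content, most in Ang(1-7) 2. PA/OA 2 and 3 sloped slightly down as well. Levels were taken relative to the PA/OA mean, so an upward slope of PA/OA 1 alone would give the other libraries a downward slope. The histone medians were -0.17, -0.12 and -0.38 in Ang(1-7) 1 to 3. The part of GC content in the histone values was not tested, apart from the values given next with a GC correction. With a GC term per library, a correction chosen after seeing the data, the histone median was -0.07 beside 0.03 for all genes, 34 of 64 were negative and 7 had an unadjusted p under 0.05 with lower values. Under that correction the log2 change of Hist1h3h was -0.32 and that of Hist1h2af 0.08, and among other genes named here that of Armc5 was -0.79, Maff -0.49, Junb -0.37, Irs2 -0.0751 and Ctsd -0.00376, all nearer to 0 than in the fit without it. S100a11 (0.93), Nsun3 (1.00) and Uri1 (-1.08) differed little from their values in that fit.

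**Figure D4:**
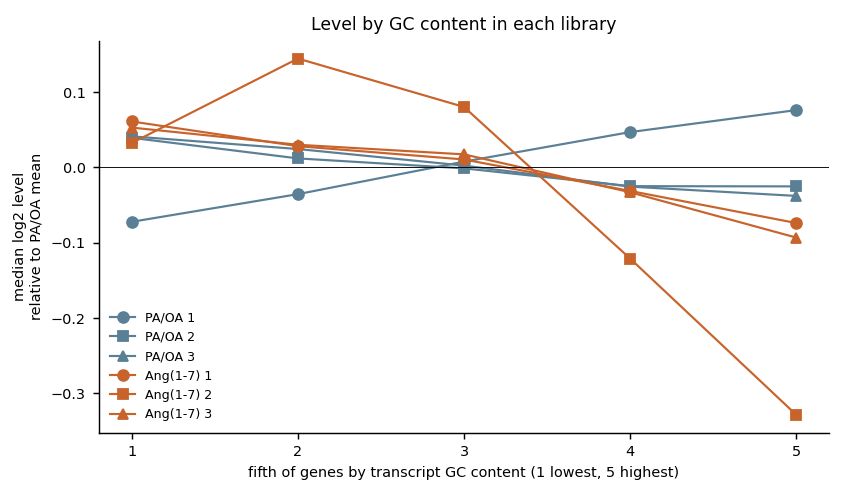
Median log2 level relative to the PA/OA mean (y axis) in each quintile of genes by transcript GC content (x axis, 1 lowest), 1 line per library. In the highest quintile PA/OA 1 lies at 0.08 and Ang(1-7) 2 at -0.33.

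Genes of lipid droplets and triglyceride had no call among 15 tested, with 0 apart higher and 3 apart lower (20%, beside 6.37% of all genes), and a median log2 change of -0.16 (-0.07 without Ang(1-7) 2). Plin2, which encodes the droplet coat protein perilipin 2, was at 16.3, 11.3 and 11.2 CPM in PA/OA and 12.3, 5.16 and 13.8 CPM in Ang(1-7). The groups overlapped and Ang(1-7) 2 alone was low. Its log2 change was -0.31 ± 0.38 (95% interval -1.16 to 0.54) and 0.03 without that library. Lipe, hormone-sensitive lipase, was at 2.41, 2.40 and 1.67 CPM against 0.630, 1.66 and 0.781 CPM (log2 change -1.07 ± 0.64), apart by a narrow margin.

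Of 24 tested fatty acid oxidation genes and PPAR-alpha targets, 0 were called and 3 lay apart lower (12.5%, beside 6.37% of all genes), with a median log2 change of -0.09 that was -0.0351 without Ang(1-7) 2. Cpt1a, the carnitine palmitoyltransferase at the entry to mitochondrial oxidation, was at 9.90, 10.6 and 6.69 CPM in PA/OA and 8.00, 7.34 and 8.74 CPM in Ang(1-7), fully overlapping (log2 change -0.17 ± 0.29, and -0.10 without Ang(1-7) 2). The acyl-CoA thioesterase gene Acot1 was at 284, 258 and 278 CPM against 261, 215 and 250 CPM (-0.18 ± 0.12, and -0.0865 without Ang(1-7) 2), and Angptl4, a lipoprotein lipase inhibitor, had an interval of -0.31 to 0.38. Among 20 genes of fatty acid synthesis and activation, 3 lay apart higher (15%, beside 4.6% of all genes). Scd1, the stearoyl-CoA desaturase, was at 698, 673 and 709 CPM against 733, 933 and 773 CPM (0.23 ± 0.12, and 0.13 without Ang(1-7) 2), and Acsl3, an acyl-CoA synthetase of lipid droplets, had a log2 change of 1.25 ± 0.51 that was 0.27 without Ang(1-7) 2. Fasn, fatty acid synthase, had an interval of -0.28 to 0.21. Of 24 cholesterol genes, 0 were called and 3 lay apart lower (12.5%, beside 6.37% of all genes).

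Inflammatory and acute phase genes had 4 of 28 apart higher (14.3%, beside 4.6% of all genes), 0 apart lower and 0 called, with a median log2 change of 0.06. The monocyte chemokine gene Ccl7 was at 37.9, 33.0 and 33.4 CPM in PA/OA and 40.3, 65.7 and 46.7 CPM in Ang(1-7), a log2 change of 0.55 ± 0.21 and 0.34 without Ang(1-7) 2. Vcam1, a leukocyte adhesion molecule, was at 421, 395 and 372 CPM against 436, 649 and 491 CPM (0.41 ± 0.15, and 0.24 without Ang(1-7) 2). Ptgs2, the inducible cyclooxygenase, was at 478, 462 and 498 CPM against 509, 603 and 535 CPM (0.20 ± 0.11). In each of these Ang(1-7) 1 was just above the highest PA/OA library and Ang(1-7) 2 was the highest. The neutrophil chemokine genes Cxcl1 and Cxcl5 overlapped, with log2 changes of -0.12 ± 0.22 and -0.07 ± 0.16, and Ang(1-7) 2 alone was low in both. Ccl2 had a log2 change of 0.08 ± 0.10, Saa3 -0.13 ± 0.23, and the complement gene C3 0.12 ± 0.12.

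Of 24 genes of the unfolded protein response and chaperones of the endoplasmic reticulum, 3 lay apart higher (12.5%, beside 4.6% of all genes). In the other direction 1 lay apart lower (4.17%, beside 6.37%). The median log2 change was 0.14 (0.05 without Ang(1-7) 2). Dnajb9, a co-chaperone of BiP, was at 27.9, 30.8 and 26.5 CPM in PA/OA and 33.0, 73.7 and 44.2 CPM in Ang(1-7) (0.82 ± 0.28, and 0.46 without Ang(1-7) 2). Hsp90b1, the endoplasmic reticulum form of HSP90, had a log2 change of 0.35 ± 0.15 and 0.17 without that library. Genes of the integrated stress response had a median of -0.09 over 24 tested, and its effector Ddit3 had an interval of -0.43 to 0.91. Of 23 glycolysis and hypoxia genes, 3 lay apart higher (13.0%, beside 4.6% of all genes) and 2 apart lower (8.70%, beside 6.37%). The median log2 change of this list was 0.02, with 12 genes positive and 11 negative. Of those apart higher, the oxygen sensor gene Egln3 was at 85.5, 90.2 and 83.6 CPM against 98.7, 137 and 110 CPM (0.41 ± 0.15). Ero1l, an oxidase of the endoplasmic reticulum, had a log2 change of 0.33 ± 0.13 and lay apart higher as well. Bnip3, a mitophagy receptor, lay apart higher with a log2 change of 0.44 ± 0.18 (0.25 without Ang(1-7) 2). For Egln3 and Bnip3 the highest library was Ang(1-7) 2.

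Immediate early genes had 3 of 19 apart lower (15.8%, beside 6.37% of all genes) and 0 apart higher, with a median log2 change of -0.19 that was -0.04 without Ang(1-7) 2. Maff, a small Maf transcription factor, was at 35.7, 25.5 and 31.7 CPM in PA/OA and 22.9, 19.6 and 15.1 CPM in Ang(1-7) (-0.69 ± 0.23, and -0.69 without Ang(1-7) 2). Junb, a subunit of the AP-1 factor, was at 1178, 942 and 992 CPM against 852, 374 and 793 CPM (-0.62 ± 0.26, and -0.32 without Ang(1-7) 2). Ang(1-7) 2 was thus the low library for Junb and not for Maff. Cytosolic ribosomal protein genes, many of which have near-identical pseudogenes, had a median of -0.08. Of 78 tested, 7 lay apart lower (8.97%, near the 6.37% of all genes) and 1 apart higher (1.28%, beside 4.6%). Nuclear genes of oxidative phosphorylation had 3 of 48 apart higher (6.25%) and 4 apart lower (8.33%), near the shares of all genes, with a median at 0.00.

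The other lists had 0 calls as well. Extracellular matrix genes and targets of TGF-beta and YAP had 5 of 26 apart lower (19.2%, beside 6.37% of all genes) and 2 apart higher (7.69%, beside 4.6%). Over these 26 genes, 14 positive and 12 negative, the median log2 change was 0.06 (-0.04 without Ang(1-7) 2). Among them Smad3, a transcription factor of the TGF-beta pathway, was at 40.9, 37.8 and 41.7 CPM in PA/OA and 34.3, 21.9 and 29.3 CPM in Ang(1-7), with no overlap and the lowest value in Ang(1-7) 2 (log2 change -0.49 ± 0.20, and -0.32 without that library). Of 27 genes of apoptosis and p53, 0 lay apart lower and 2 apart higher (7.41%, beside 4.6% of all genes). These were the pore-forming Bak1 (0.48 ± 0.20, and 0.28 without Ang(1-7) 2) and the death receptor gene Tnfrsf10b (0.46 ± 0.19, and 0.27). Of 24 genes of autophagy and the lysosome, 1 lay apart higher (4.17%) and 2 apart lower (8.33%), near the shares of all genes. Wipi2, which acts in the formation of autophagosomes, was at 48.3, 44.7 and 47.2 CPM against 37.8, 34.7 and 35.6 CPM, with tight groups that did not overlap (-0.38 ± 0.15, and -0.34 without Ang(1-7) 2). Of 31 antioxidant genes and NRF2 targets 2 lay apart in each direction (6.45% each). Of 28 cytosolic chaperone genes 2 lay apart higher (7.14%) and 1 lower (3.57%), and of 13 hepatocyte identity genes 1 lay apart lower (7.69%). The shares of all genes were 4.6% higher and 6.37% lower, so these counts were near them. The sterol efflux, complement and interferon lists held 7, 7 and 9 tested genes. Apart higher were 1 (14.3%), 1 (14.3%) and 0, beside 4.6% of all genes. Apart lower were 0, 0 and 1 (11.1%), beside 6.37%.

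Genes of signalling linked to the peptide came last. Of 9 tested genes of the angiotensin system and of peptidases that act on Ang(1-7), 0 were called and 2 lay apart lower (22.2%, beside 6.37% of all genes). These were Ctsd, the lysosomal protease cathepsin D (log2 change -0.15 ± 0.10, -0.0952 without Ang(1-7) 2 and -0.00376 with the GC correction), and Prep, prolyl endopeptidase, at 75.7, 69.4 and 68.1 CPM against 66.9, 58.3 and 57.8 CPM (-0.22 ± 0.14). Agt, angiotensinogen, was at 7.22, 6.65 and 4.04 CPM against 4.53, 14.6 and 6.92 CPM, with only Ang(1-7) 2 outside the PA/OA range (0.54 ± 0.45, and -0.05 without that library). Of 27 tested genes of insulin, PI3K/Akt and AMPK signalling, 0 lay apart in either direction and the median was -0.06. The insulin receptor substrate gene Irs2 had a log2 change of -0.23 ± 0.14 (-0.12 without Ang(1-7) 2). Of 18 genes of nitric oxide, MAPK phosphatases and NADPH oxidase, 1 lay apart lower (5.56%, near the 6.37% of all genes). The map of list medians by library shows that the strongest colours are mostly those of Ang(1-7) 2.

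**Figure D5:**
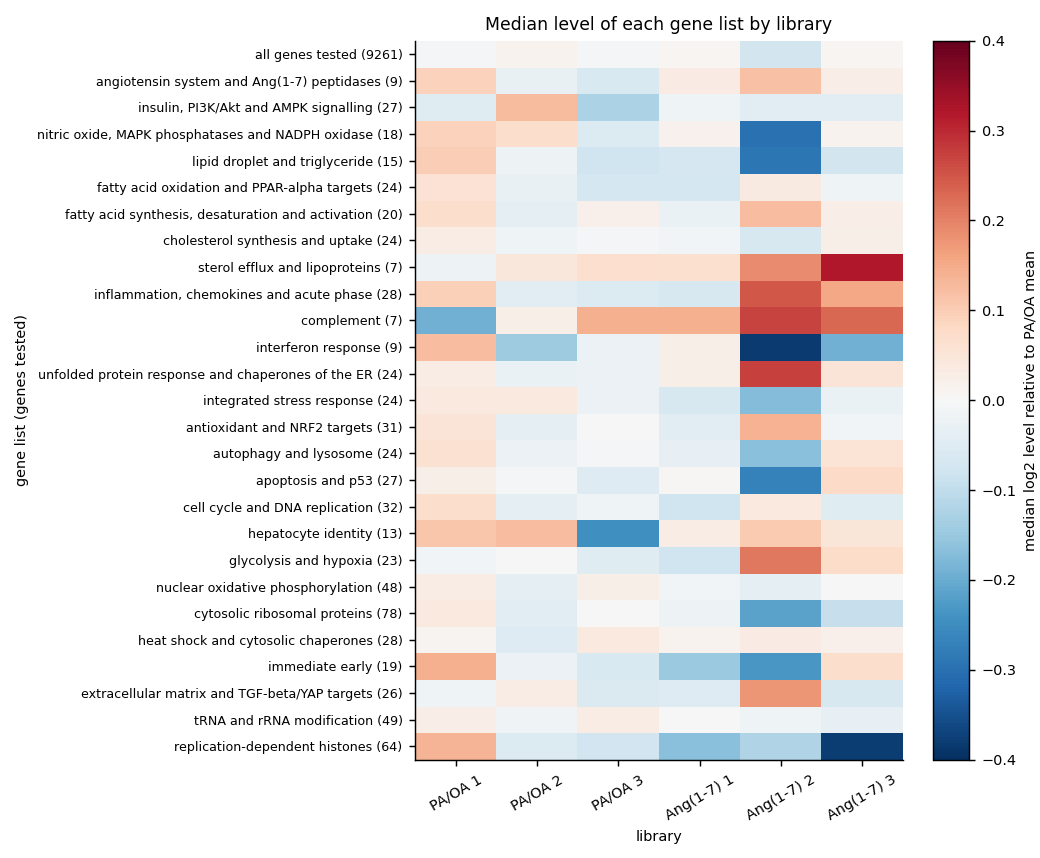
Median log2 level relative to the PA/OA mean (colour, pseudocount 0.5 CPM) of each gene list (rows, genes tested in brackets) in each library (columns). The histone list is at -0.17, -0.12 and -0.38 in Ang(1-7) 1 to 3, and lists such as lipid droplet (-0.29 in Ang(1-7) 2) stand out mainly in that library.

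Levels in untreated cells, in CPM of transcripts listed for all groups, are set beside these with no test, since the comparisons share the PA/OA libraries. S100a11 was at 85.8 ± 12.1 in control (SD, n = 3), 117 ± 14.8 in PA/OA and 221 ± 48.8 in Ang(1-7). Nsun3 was at 12.3 ± 1.67, 9.94 ± 1.08 and 19.9 ± 0.753, so its Ang(1-7) mean lay above both other groups. Uri1 was at 19.4 ± 2.12, 26.0 ± 2.56 and 12.6 ± 4.56, and Armc5 at 15.6 ± 4.6, 18.7 ± 2.55 and 8.83 ± 1.85, both lowest in Ang(1-7). Ccl7 was at 8.72 ± 2.94, 35.2 ± 2.15 and 50.4 ± 9.95, and Ptgs2 at 274 ± 3.17, 486 ± 14.9 and 547 ± 19.2. For these inflammatory genes the Ang(1-7) mean was farther from control than the PA/OA mean was, whereas for others it was nearer. Cxcl1 was at 151 ± 14.1, 488 ± 28.7 and 449 ± 162, Cxcl5 at 237 ± 10.5, 1652 ± 84.0 and 1569 ± 415, and Saa3 at 0.943 ± 0.792, 21.5 ± 1.01 and 19.4 ± 5.04. The SD of the Ang(1-7) group in these 3 genes exceeded the difference from PA/OA. Hist1h3h was at 438 ± 15.4, 402 ± 23.4 and 248 ± 90.2, and Hist1h2ao at 66.3 ± 10.3, 72.3 ± 23.0 and 35.6 ± 9.30.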

How the data were processed

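RNA of 9 samples was measured, 3 per group, and 6 entered this comparison, each assigned by its label. Per the labels' protocols, Qiazol and the miRNeasy kit were used to isolate RNA. The authors deposited raw read counts for RefSeq transcripts (14553 listed here, 8076 curated and 6477 predicted). The submitters' processing notes list HTSeq 0.11.2, HISAT2 2.2.5 and bcl2fastq, and name a human build although the transcripts are mouse. How HTSeq treated strand and shared reads is not given in the sources used here.

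Counts were summed per gene symbol and tested with edgeR 4.0.16 in R 4.3.3 (TMM scaling, filterByExpr, quasi-likelihood F test, two-sided, no replicate term), with Benjamini-Hochberg adjustment over all 9261 genes tested and a threshold of 0.05. The script was tested on simulated data with less spread between libraries than found here, which does not show the power reached here. Levels are TMM-scaled CPM, and sums over markers are CPM of listed counts with exact Poisson intervals, which cover counting error only. A gene lay apart where all 3 libraries of one group exceeded all 3 of the other.

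The members and the 26 gene lists and 9 marker lists were chosen with earlier results of these data known. Named were up to 10 genes per direction with the lowest p among those apart and with a mean of at least 50 counts (no gene was called), up to 3 members of lowest p per list, a set of genes named in any case, and up to 3 markers per marker list. Not every named gene is described, and some are not reported here. DESeq2 1.42.0, limma-voom (limma 3.58.1) with and without sample weights, RLE size factors, library totals, other count filters, curated transcripts alone, a replicate block and each library left out were alternatives. A GC correction (loess, over the 98.0% of genes with a GENCODE GC value) was added after seeing the data.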

Additional observations from a re-analysis of the deposited data

How the results depend on the processing

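The count of genes called was 0 in each direction in edgeR's test and in limma-voom with and without sample weights, RLE size factors, library totals, no filter, a mean of at least 50 counts, curated transcripts and the GC correction. DESeq2 gave 3 higher and 0 lower. With 1 library left out the count of higher genes ranged from 0 to 18, and 18 came without Ang(1-7) 1 alone, with 0 lower in every case. Adding the replicate block gave 0 calls (lowest adjusted p = 0.396 in edgeR with Benjamini-Hochberg adjustment). At an unadjusted p under 0.05 it gave 73 higher and 111 lower. Same-numbered libraries correlated at -0.07, -0.05 and 0.00 after removal of group means. With 3 libraries per group, 1 of which stood apart, these values cannot decide whether the numbers pair the samples. Of 73 genes followed, 60 kept their sign in all alternatives. The sign of the log2 change turned for Plin2 with sample weights (0.0258) and curated transcripts (0.39), for Cpt1a (0.0218) and Ddit3 (-0.15) with curated transcripts, for Pdk4 (0.24), Insig1 (0.0136), Cxcl1 (0.10) and Cxcl5 (0.0896) with sample weights, and for Hist1h2af (0.0808) and Fasn (0.19) with the GC correction. With 1 library left out it ranged from -0.0483 to 0.85 for Agt, -0.57 to 0.0253 for Plin2, -0.69 to 0.27 for Pdk4, -0.0759 to 0.19 for Angptl4, -0.10 to 0.0153 for Fasn, -0.22 to 0.0481 for Insig1, -0.29 to 0.14 for Cxcl1, -0.19 to 0.11 for Cxcl5, -0.26 to 0.0401 for Saa3 and -0.13 to 0.97 for Lcn2. The cause was not tested. The GC correction moved the medians of 6 of 26 lists by more than the spread between libraries, the histone list among them. The histone median lay between -0.31 and -0.19 with 1 library left out. Intervals were wider for weakly expressed genes.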
